A study of Mus musculus with 3 samples.

Results

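The cytosolic ribosomal protein genes of the mouse were described in control bone marrow and in 2 mouse leukemias driven by TBLR1-RARα (TR). Members were the protein-coding genes whose symbol is Rpl or Rps followed by a digit, together with Rplp0, Rplp1, Rplp2 and Rpsa. S6 kinase genes, Rps19bp1 and pseudogenes were left out. The rule found 87 members among 16742 genes listed in any library, 54 of the large subunit (Rpl) and 33 of the small subunit (Rps), and the counts of 84 or 85 of them reached 10 in either library of each comparison. Control was lin- marrow of wild-type C57BL/6 mice, lin- meaning that cells with mature lineage markers had been removed. TR1 and TR9 were GFP+ marrow cells, sorted from C57BL/6 mice of the genotype TBLR1-RARa, in the third generation of serial transplantation. GFP and TR were expressed from a retrovirus introduced into lin- cells, and TR1 and TR9 each go back to 1 primary mouse. Each library pooled 3 mice aged 6 to 8 weeks, and there was 1 library per condition. No difference below therefore has a replicate check, the tests compare the reads of these libraries and not the conditions, and the leukemia and the way cells were isolated cannot be told apart.

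The ribosome reads mRNA in its small subunit and joins amino acids in its large subunit. Each subunit is built in the nucleolus from ribosomal RNA and from proteins that are needed in about equal numbers, so cells make the proteins together and degrade unassembled copies. Most of their mRNAs begin with a short run of pyrimidines, the terminal oligopyrimidine (TOP) tract, through which mTORC1 signaling controls their translation. In blood formation these genes are known from Diamond-Blackfan anemia, in which loss of 1 copy of a ribosomal protein gene impairs erythroid precursors.

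The deposited counts summed to between 5129662 and 5571409 per library. The libraries differed in cell makeup. The summed FPKM (fragments scaled for gene length and library total) of 8 erythroid markers was 2136 (control), 42.1 (TR1) and 41.1 (TR9), and that of 5 late granulocyte markers was 67.9, 21462 and 5849. Of the erythroid markers, Alas2 was at 0 in both TR libraries and Epor in TR1. The summed FPKM of 4 primary granule markers was 4100, 20452 and 23289. That of 5 proliferation genes was 850, 388 and 434. At a log2 ratio of at least 1 in size and a false discovery rate of 0.001 or less, 3 were lower in TR1. In TR9 3 were lower, counted apart from those in TR1. Of all genes tested, 13.0% were lower in TR1 and 10.8% in TR9 by this threshold. The part of this difference in cell makeup in the values below was not tested, and in such bulk RNA fewer cells of a type cannot be told apart from less RNA per cell.

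Sequences near the transcription start are shown because most mRNAs of these genes begin with a TOP tract. RefSeq (GRCm38.p6) gave 79 promoters for 67 of the 87 members. A run of at least 8 pyrimidines on the gene strand, from 50 bases before to 50 after the annotated start, was found in 61 of the 79 (77.2%), against 35.7% of all 32851 promoters. Of motifs searched on both strands from 250 bases before to 50 after the start, CCGGAAG was found in 34.2% against 8.86% of all promoters, AAGATGG in 15.2% against 6.34%, CACGTG in 10.1% against 7.15% and TATAAA in 10.1% against 13.6%. CCGGAAG and AAGATGG can share the letters AAG. The windows below give the 5 members with the highest mean FPKM and 2 pairs of gene and paralog, Rpl39 with Rpl39l and Rps27 with Rps27l, whose ratios are described further on. Each is the gene strand 5′ to 3′, and capitals mark the longest pyrimidine run within 50 bases of the annotated start. Windows were placed on that run, so each holds a run by choice and need not hold the annotated start.
Rps26 (chr10:128626485-128626514, minus strand): aagccgccggaTCCTCTTTCgagtcttggc
Rpl41 (chr10:128549119-128549148, minus strand): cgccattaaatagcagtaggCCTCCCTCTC
Rplp0 (chr5:115559466-115559495, plus strand): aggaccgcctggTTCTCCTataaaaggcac
Rps12 (chr10:23787182-23787211, minus strand): ccaccgccggCCTTTTCCCCTgccgccgcc
Rps24 (chr14:24490698-24490727, plus strand): ttggtcggcagtgagcggTCCTCTTTTCCT
Rpl39 (chrX:37085173-37085202, minus strand): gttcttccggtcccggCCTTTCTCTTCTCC
Rpl39l (chr16:10170191-10170220, plus strand): aacacccactgCCTCTCCCTagctcccagg
Rps27 (chr3:90213632-90213661, minus strand): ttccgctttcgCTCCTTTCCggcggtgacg
Rps27l (chr9:66946053-66946082, plus strand): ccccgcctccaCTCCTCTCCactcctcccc
The runs were 7 to 14 bases long. Those of Rpl41, Rps24 and Rpl39 end at the last base searched and may be longer. Counted from the annotated start, the runs begin at 4 for Rps26, 41 for Rpl41, 12 for Rplp0, 9 for Rps12 and 39 for Rps24. Those of the paralog pairs begin at 37 for Rpl39, -2 for Rps27, -26 for Rpl39l and -22 for Rps27l. The windows of Rpl41, Rps24, Rpl39, Rpl39l and Rps27l do not hold the annotated start. Whether the marked runs are TOP tracts was not tested. The runs of the paralogs Rpl39l and Rps27l thus lie before the annotated start, outside the mRNA as annotated. No run shown begins at the annotated start itself.

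Ribosomal protein mRNA took a larger share of the TR1 library than of the other 2. The 87 members held 6.19% of the counts in control (95% exact binomial interval 6.17 to 6.21), 9.21% in TR1 (9.19 to 9.23) and 7.13% in TR9 (7.11 to 7.15). These and all other intervals given here are Clopper-Pearson intervals and cover counting error only. By FPKM, which corrects for gene length, the share was 17.8% in control, 23.0% in TR1 and 19.4% in TR9. Of the 100 most abundant genes by counts, 28 were members in control, 38 in TR1 and 28 in TR9. Without the 100 most abundant genes of each library, the members left held 2.78%, 3.15% and 3.41% of the remaining counts. The genes left out differ by library and hold the most members in TR1, so these shares do not compare the same genes.

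The order of levels among the members was much alike in the 3 libraries. Of the 87, 10 are second-copy or tissue-restricted paralogs and are described further below. Over the other 77, the median FPKM was 973 in control, 1492 in TR1 and 1132 in TR9, while the median over all listed genes was 7.55, 7.25 and 7.95. The 77 ran from 31.2 FPKM (Rps15a) to 2936 (Rps26) in control, from 48.3 to 4197 in TR1 and from 38.6 to 3445 in TR9, with the same lowest and highest gene each time. The log2 FPKM of these genes correlated between control and TR1 with Pearson's r of 0.976 (Spearman's rho 0.954) and between control and TR9 with r of 0.979 (rho 0.954). These 77 points are genes of the same libraries, share their depth and length correction and are not independent replicates. The low value of Rps15a went with a deposited length of 5158 bases and with reads divided between it and 2 listed pseudogene copies, since its counts were not whole numbers.

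Among the most abundant members, all 5 chosen by mean FPKM were highest in TR1 and lowest in control as deposited, and with FPKM rescaled to an equal sum in each library (TPM) Rpl41 was lowest in TR9. Rps26, a small subunit protein beside the mRNA exit and a Diamond-Blackfan anemia gene, stood at 2936 FPKM in control, 4197 in TR1 and 3445 in TR9. Its log2 ratio against control was 0.52 (95% interval 0.48 to 0.56) for TR1 and 0.23 (0.19 to 0.28) for TR9. Rpl41, the shortest ribosomal protein, stood at 2300.45, 3247 and 2464 FPKM, with log2 ratios of 0.50 and 0.10. Rplp0, the base of the stalk that recruits elongation factors, stood at 1975, 3115 and 2244 FPKM, with log2 ratios of 0.66 and 0.18. In these 3 genes TR1 stood well above TR9, and TR9 was the nearer of the TR libraries to control. Rps12 of the small subunit stood at 1783, 3272 and 2089 FPKM, with log2 ratios of 0.88 (0.83 to 0.93) and 0.23 (0.17 to 0.29). Rps24, another Diamond-Blackfan anemia gene, stood at 1709, 2737 and 2510 FPKM, with log2 ratios of 0.68 (0.64 to 0.72) and 0.55 (0.51 to 0.60), so that here TR9 was nearer to TR1.

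**Figure D1:**
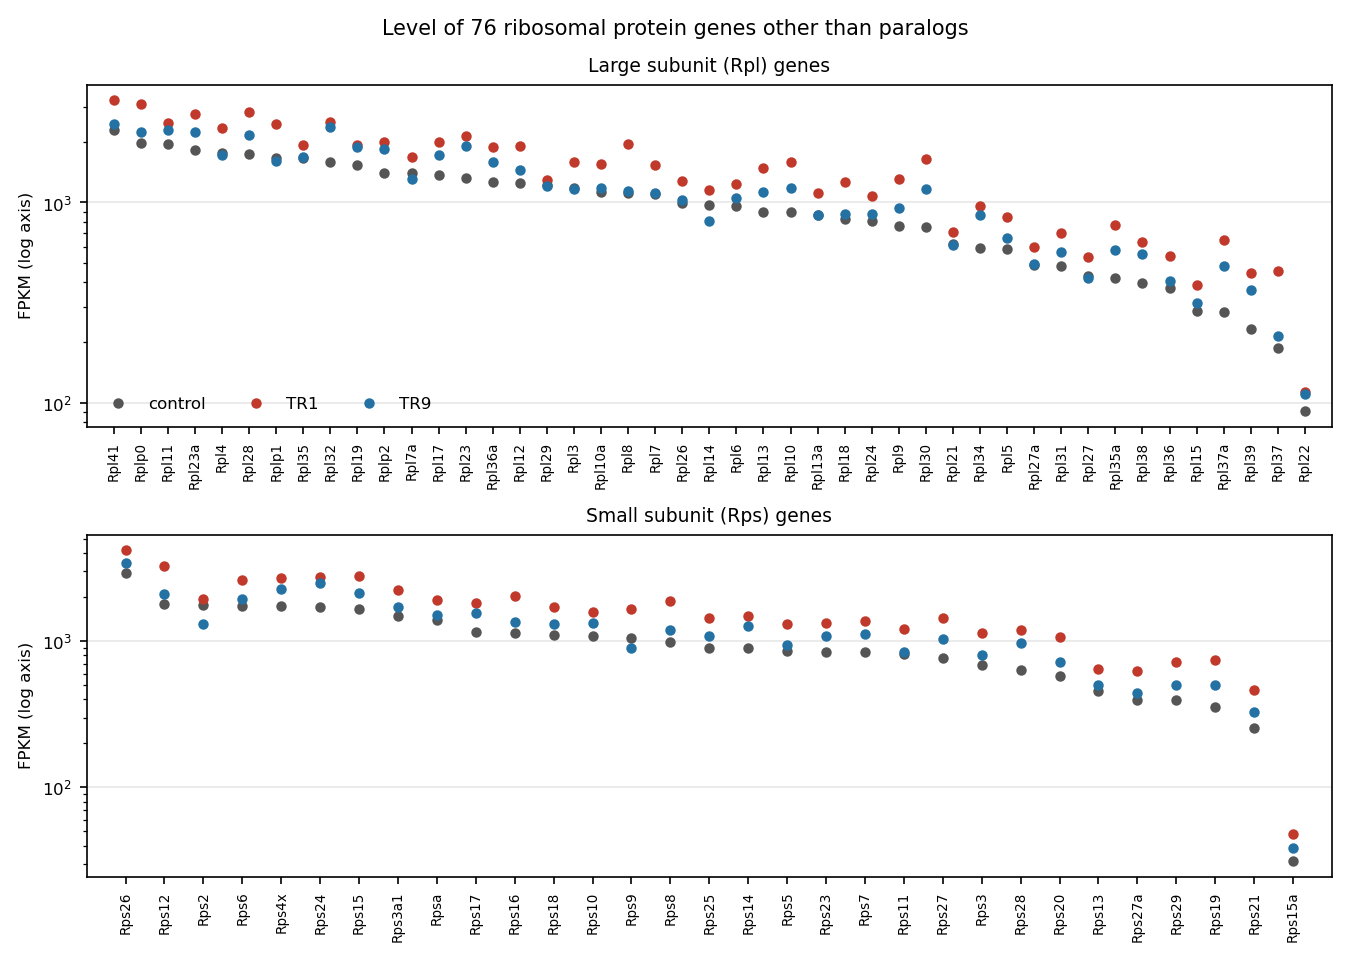
FPKM (log axis) of 76 ribosomal protein genes other than paralogs in control (grey), TR1 (red) and TR9 (blue), 1 library each, with the genes of each subunit in the order of their control level. As deposited, TR1 is the highest point for each gene shown, and TR9 lies between TR1 and control for 66 of them. With TPM scaling TR1 is not the highest for Rpl19, Rpl21, Rpl22, Rpl29, Rpl32 and Rps2.

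TR1 was compared with control to ask how the leukemia differed from lin- marrow. Ribosomal protein genes were higher in TR1 almost without exception but by a modest amount. The log2 ratio of FPKM was above 0 in 84 of 86 tested members and below 0 in 2, against 37.1% and 61.6% of all genes tested, and in 77 of the 77 without paralogs. With TPM scaling, 74 of the 77 stayed above 0 and Rpl21, Rpl29 and Rps2 fell below it. The median over the members was 0.61, while over all genes tested it was -0.29, and over the 1386 other genes with at least 1000 counts in either library -0.32. The members lay close together. The interquartile range over the 77 was 0.28, against 1.52 over all genes.

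By the study's threshold, a log2 ratio of at least 1 in size at a false discovery rate of 0.001 or less in a Poisson test (DEG), 5 of 86 members were higher in TR1 than in control and 0 were lower. The share over all genes tested was 8.09% higher and 13.0% lower. A wider call, with the same false discovery rate but a log2 ratio of 0.5 or more in size, took 56 members as higher (65.1%, against 11.7% of all genes) and 0 as lower (against 23.0%). Of other genes with at least 1000 counts in either library, it took 23.4% as higher and 39.6% as lower. Large subunit genes made 28 of the 56 calls out of 53 tested and small subunit genes 28 out of 33. The median log2 ratio was 0.54 over the 46 large subunit genes without paralogs and 0.66 over the 31 small subunit genes. With the counts of all members added up, the log2 ratio was 0.57 (0.57 to 0.58). DEGs among the members were 20 with TMM scaling and 2 with TPM, and the wider call took 24 with TPM. The exact test of edgeR, with an assumed biological variation of 0.2 in place of replicates, called 1 member by either threshold.

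4 members other than paralogs were DEGs in TR1. Rpl37, a zinc-binding large subunit protein, had 864, 2154 and 935 counts (here and below for control, TR1 and TR9), with log2 ratios for TR1 and TR9 of 1.29 (1.18 to 1.41) and 0.21 (0.08 to 0.35). Rpl37a, also zinc-binding and in the large subunit, had 892, 2093 and 1414 counts, with 1.20 (1.10 to 1.32) and 0.76 (0.64 to 0.88). TR1 held more than the other libraries in both genes, but TR9 was close to control for Rpl37 only. Rpl30 of the large subunit had 2116, 4682 and 3039 counts, with 1.13 (1.05 to 1.20) and 0.63 (0.54 to 0.70). Rps19, the gene most often mutated in Diamond-Blackfan anemia, had 1174, 2495 and 1556 counts, with 1.06 (0.97 to 1.17) and 0.50 (0.39 to 0.61). In both, TR9 lay between control and TR1. Counts of Rpl37, Rpl30 and Rps19 were not whole, so reads had been divided between them and similar genes. Rpl37 added to its copy Rpl37rt gave log2 ratios of 1.12 for TR1 and 0.48 for TR9, and Rps19 added to its pseudogene copy 1.06 and 0.50.

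Apart from the paralogs Rps27l and Rpl7l1, the lower end in TR1 was made of genes at about the control level. Rpl29, a large subunit protein, had 4577 counts in control and 4968 in TR1, a log2 ratio of 0.09 (0.04 to 0.15). Rps2, at the mRNA entry of the small subunit, had 9602 and 10757 counts, a log2 ratio of 0.14 (0.10 to 0.18). Rpl21 of the large subunit had 6313 and 7413 counts, a log2 ratio of 0.21 (0.16 to 0.26). These values missed the wider call, and their sign turned with TPM scaling, to -0.13, -0.09 and -0.02.

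TR9 was compared with control by the same steps, and its ribosomal protein genes stood higher by a smaller amount. The log2 ratio was above 0 in 72 of 86 tested members and below 0 in 13, against 45.0% and 54.4% of all genes. The median was 0.24 over the members and -0.12 over all genes tested, and -0.24 over 1377 other genes with at least 1000 counts. With the counts of all members added up, the log2 ratio was 0.20 (0.20 to 0.21). Without paralogs, 67 of 77 were above 0 as deposited, and between 57 (TPM) and 74 (TMM) under other scalings. The median was 0.20 for the large and 0.29 for the small subunit genes.

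2 members, both paralogs, were DEGs higher in TR9 and 0 were lower, against 9.37% and 10.8% of all genes. The wider call took 14 members as higher (16.3%, against 13.5% of all genes) and 0 as lower (against 18.9%). Of other genes with at least 1000 counts in either library, 24.8% were called higher and 36.7% lower. The members' share called higher was thus near that of all genes and below that of abundant ones. The absence of lower calls stood apart from both. With TPM scaling 6 members passed the wider call, and 1 member was called by edgeR at that variation. Besides the paralogs Rpl39l, Rpl3l and Rpl37rt, the 14 included Rpl23, Rpl30, Rpl32, Rpl34, Rpl37a and Rpl39 of the large subunit and Rps14, Rps19, Rps24 and Rps28 of the small subunit. All of the 14 but Rpl3l, 13 members, also passed the wider call in TR1, while 8.45% of all genes passed it as higher in both TR libraries. None of the 87 passed it as lower in both, against 15.6% of all genes. Both comparisons use the same control library. Rpl39, a short protein that lines the exit tunnel for the nascent chain, had 466, 907 and 679 counts, with log2 ratios of 0.94 (0.78 to 1.10) and 0.64 (0.47 to 0.81). Rps28, a small subunit protein and Diamond-Blackfan anemia gene, had 1031, 1979 and 1487 counts, with 0.92 (0.81 to 1.03) and 0.62 (0.51 to 0.74). Both rank with the shortest members.

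4 members were above control in TR1 and below it in TR9, past the false discovery rate threshold in each comparison. Rps9, an early binder of small subunit ribosomal RNA, had 3930, 6300 and 3130 counts, with log2 ratios for TR1 and TR9 of 0.66 (0.60 to 0.72) and -0.23 (-0.30 to -0.16). Rps2 had 6651 counts in TR9, a log2 ratio of -0.43 (-0.48 to -0.39), which was the lowest of the 77 genes without paralogs. Rpl14 of the large subunit had 4880, 5859 and 3807 counts, with 0.24 (0.19 to 0.30) and -0.26 (-0.32 to -0.20). Rpl7a, also of the large subunit, had 6454, 7973 and 5634 counts, with 0.28 (0.24 to 0.33) and -0.10 (-0.15 to -0.05). None reached the wider call in TR9. The counts of Rps2 and Rpl7a were not whole, so reads had been divided between them and similar genes. With TMM scaling Rpl7a was at 0.007 in TR9 and no longer below control, and with TPM scaling Rps2 was below control in TR1 as well.

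**Figure D2:**
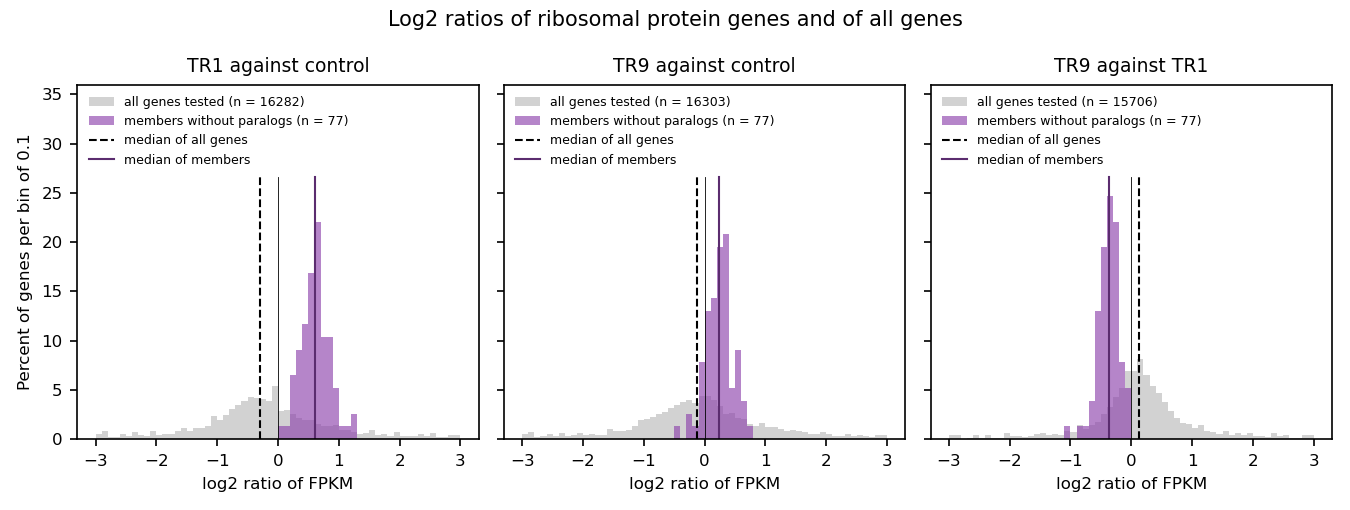
Distribution of the log2 ratio of FPKM in bins of 0.1 for all genes tested (grey) and for the 77 members without paralogs (purple), as percent of each set, with 1 panel per comparison. The solid line is the median of the members and the dashed line that of all genes, and genes with an absolute log2 ratio over 3 are not drawn. The members form a narrow peak to the right of the gene median against control and to its left for TR9 against TR1.

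TR9 was compared with TR1 to ask how the leukemias differed from each other. Ribosomal protein genes were lower in TR9, by a median log2 ratio of -0.37, while the median over all genes tested was 0.13. The ratio was below 0 in 84 of 87 members and above 0 in 3, against 38.8% and 60.2% of all genes, and below 0 in 77 of the 77 without paralogs, of which 73 stayed below 0 with TPM scaling. The wider call took 18 members as lower (20.7%, against 4.69% of all genes) and 1, Rpl3l, as higher (against 9.14%). Of other genes with at least 1000 counts in either library, 10.3% were lower and 15.2% higher. DEGs were Rpl37 and Rpl39l, lower in TR9, and Rpl3l, higher (2.31% and 4.34% of all genes). Rpl37 missed the DEG threshold with TPM scaling, at -0.97, and when added to its copy Rpl37rt, at -0.64. The summed counts gave -0.37 (-0.38 to -0.36). The 18 lower calls became 40 with TMM scaling, 6 with TPM and 1 with edgeR at the assumed variation.

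The largest gaps between TR1 and TR9 among abundant members were those of Rpl37, Rps9 and Rpl8. Their log2 ratios of TR9 to TR1 were -1.08 (-1.20 to -0.97), -0.89 (-0.95 to -0.83) and -0.78 (-0.83 to -0.73). Rpl8, which lies near the peptidyl transferase center, had 5119, 9153 and 4908 counts, with a log2 ratio of TR9 to control of 0.04 (-0.02 to 0.09). At the other end, Rpl22, Rpl19 and Rpl32 differed least. Rpl22, a large subunit protein needed in lymphocyte development, had 1076, 1375 and 1228 counts, a log2 ratio of TR9 to TR1 of -0.04 (-0.16 to 0.07). For Rpl19 it was -0.04 (-0.09 to 0.00) and for Rpl32 -0.08 (-0.14 to -0.03), both of the large subunit. These signs turned with TPM scaling.

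As deposited, FPKM was highest in TR1 in 84 of the 87 members, against 19.8% of all genes. In 70 members the order was TR1 above TR9 above control (11.9% of all genes), and in 12 it was TR1 above control above TR9. TR1 was not highest for Rps27l, which was highest in control, nor for Rpl3l and Rpl32l, which were highest in TR9 with at most 18 counts. In 2 members TR1 was highest while control and TR9 were equal by FPKM. These were Rps23rg1, a retrogene with 3, 13 and 3 counts, and Rpl10l, a copy known from testis, with 1 count in TR1 and 0 elsewhere.

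Gene length moved with the size of the difference. Over the 29 members without paralogs of up to 600 bases the median log2 ratio of TR1 to control was 0.65, over 30 of 600 to 1000 bases 0.65 and over 18 longer ones 0.45. Other genes at 10 FPKM or more in these length classes had medians of 0.01, -0.16 and -0.31. In TR9 the members' medians were 0.35, 0.22 and 0.15, and those of the other genes -0.07, -0.17 and -0.18. Across the 77 genes, which share libraries and a length correction, Spearman's rho between length and log2 ratio was -0.34 in TR1 (Pearson's r -0.31) and -0.38 in TR9 (r -0.31), and -0.01 for TR9 against TR1 (r 0.03). The part of length in the differences was not tested.

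**Figure D3:**
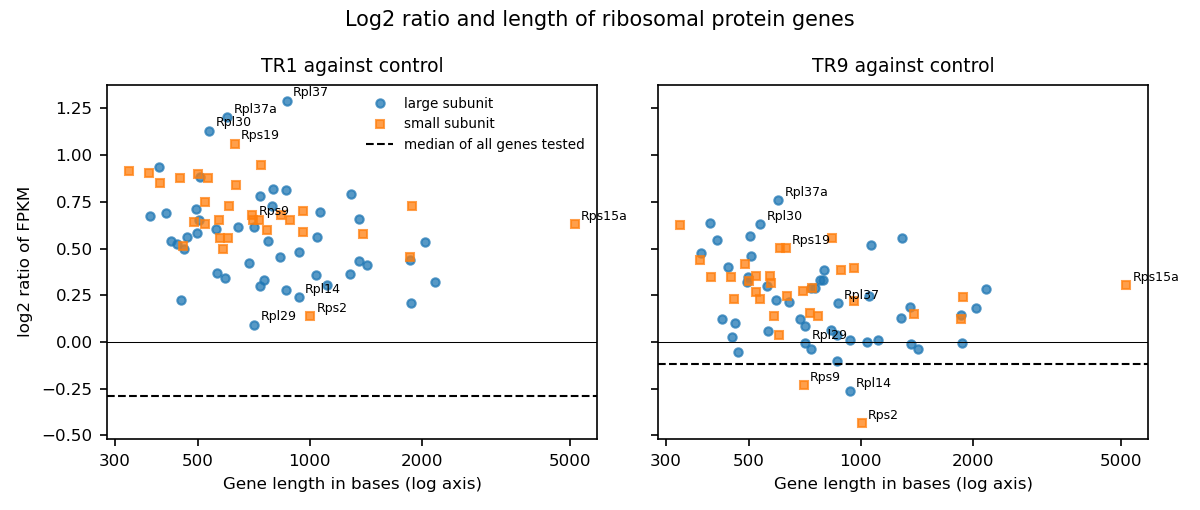
Log2 ratio of FPKM against gene length in bases (log axis) for the 77 members without paralogs, with large subunit genes as circles and small subunit genes as squares, in TR1 (left) and TR9 (right) against control. The dashed line is the median of all genes tested, -0.29 in TR1 and -0.12 in TR9, and all 77 members lie above it in TR1, where Rpl37, Rpl37a, Rpl30 and Rps19 are the highest.

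Sets of members with a known role lay within the range of the rest. The stalk genes Rplp0, Rplp1 and Rplp2 had log2 ratios of 0.66, 0.56 and 0.52 in TR1 and of 0.18, -0.06 and 0.40 in TR9. Thus 3 of 3 passed the wider call in TR1 and 0 of 3 in TR9. Rpl5 and Rpl11, which with 5S ribosomal RNA bind and inhibit Mdm2 when ribosome assembly fails, had 0.54 (0.49 to 0.59) and 0.34 (0.30 to 0.40) in TR1 and 0.18 and 0.22 in TR9. Of 19 Diamond-Blackfan anemia genes, 19 were above control in TR1 with a median of 0.62, and 14 passed the wider call (73.7%, against 65.1% of the members and 11.7% of all genes). In TR9 the median was 0.31, 18 were above control, and Rps19, Rps24 and Rps28 passed (15.8%, against 16.3% of the members and 13.5% of all genes). Rps14, whose loss accounts for the anemia of the 5q- syndrome, had 2840, 4795 and 3761 counts, with log2 ratios of 0.73 and 0.50.

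Among members with at least 10 counts, the paralog Rpl39l differed most from control in both TR libraries. Not all paralogs departed from the common pattern. Rpl36al and Rpl37rt lay within the range of the 77 members without paralogs in both comparisons with control. Rpl39l encodes a copy of the exit tunnel protein Rpl39 and is known from testis. It had 3, 278 and 36 counts, or 0.70, 63.7 and 8.97 FPKM. The log2 ratio against control was 6.51 (4.95 to 8.80) in TR1 and 3.68 (2.02 to 6.03) in TR9, and that of TR9 to TR1 -2.83 (-3.37 to -2.33). It was the 1 member called a DEG in both TR libraries against control (5.67% of all genes were called higher in both and 8.39% lower in both, where the members had 0). The FPKM of Rpl39l was 0.30% of that of Rpl39 in control, 14.3% in TR1 and 2.47% in TR9, so Rpl39 remained the more abundant copy in each library. The counts of both genes were whole numbers and so show no division of reads with another gene.

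Rps27l moved the other way. It is a p53 target that encodes a near copy of the small subunit protein Rps27. Rps27l had 207, 153 and 142 counts, with log2 ratios of -0.46 (-0.77 to -0.15) and -0.45 (-0.76 to -0.13), which missed the false discovery rate of 0.001. Rps27 itself had 1434, 2728 and 1825 counts, with 0.90 (0.81 to 0.999) and 0.44 (0.34 to 0.55). By FPKM, Rps27l stood at 11.3%, 4.39% and 6.11% of Rps27. The log2 change of this ratio was -1.36 (-1.67 to -1.06) in TR1 and -0.89 (-1.21 to -0.58) in TR9. Such a ratio within a library does not depend on the scaling between libraries. Intervals of these changes, here and below, leave out the counting error of the parent gene and are too narrow.

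The copies Rpl22l1, Rpl36al and Rpl7l1 changed less against their parent genes than Rpl39l. Rpl22l1 stood at 53.8% of Rpl22 by FPKM in control, 63.6% in TR1 and 38.3% in TR9, a log2 change of 0.24 (-0.11 to 0.58) in TR1 and -0.49 (-0.90 to -0.10) in TR9. Rpl36al stood at 31.6%, 25.1% and 26.5% of Rpl36a, with log2 changes of -0.33 (-0.45 to -0.21) and -0.26 (-0.38 to -0.13). Rpl7l1, a nucleolar relative of Rpl7, stood at 4.40%, 3.27% and 3.64% of it, with -0.43 (-0.58 to -0.28) and -0.27 (-0.44 to -0.11). In the pairs of Rpl36al and Rpl7l1 the parent gene gained over its copy in each TR library. Rpl37rt, a retrotransposed copy, stood at 108%, 81.0% and 157% of Rpl37, but neither had whole counts, so the split between them is uncertain. Counts of Rpl22l1, Rpl7l1 and Rpl36a were not whole either, so the ratios of their pairs also rest on divided reads. Rpl3l, the striated muscle copy of Rpl3, had 2, 0 and 18 counts, a log2 ratio of TR9 to control of 2.94 (1.21 to 6.42), a log2 change against Rpl3 of 2.95 (1.21 to 6.43) and a level at least 6.52-fold higher in TR9 than in TR1, against a floor of 3 counts per library. Rps4l, a transcribed pseudogene copy of Rps4x and no member, had 44 control counts and none in TR1 or TR9, and was lower by at least 14.9-fold and 13.7-fold.

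**Figure D4:**
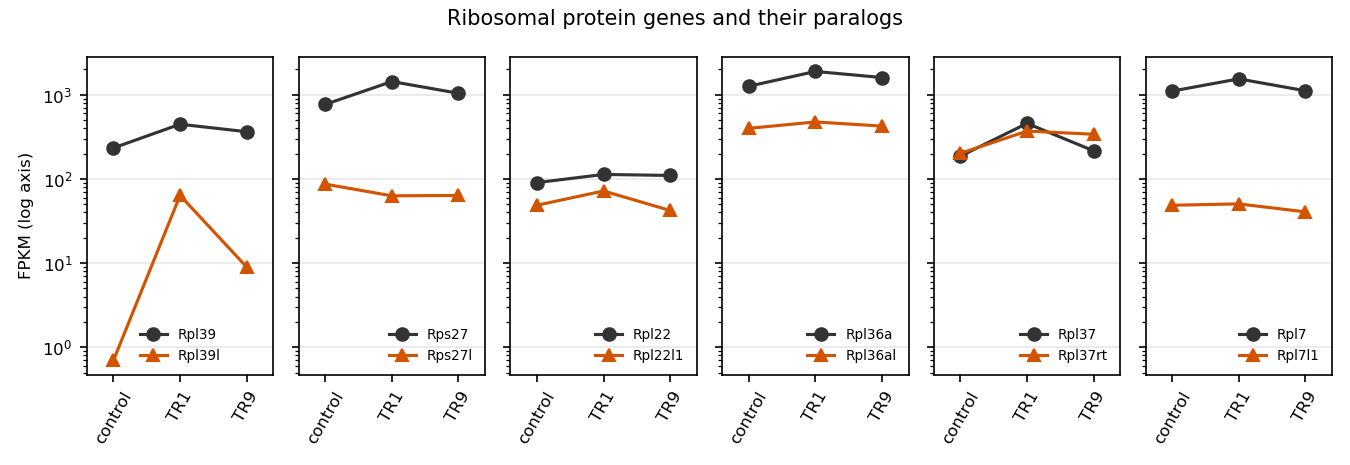
FPKM (log axis) of 6 ribosomal protein genes (circles) and their paralogs (triangles) in control, TR1 and TR9, 1 library each, where lines join the values of a gene and stand for no order in time. Rpl39l goes from 0.70 FPKM in control to 63.7 in TR1 and 8.97 in TR9, and Rps27l is below its control level in both TR libraries while Rps27 is above it.

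Genes that make ribosomes did not share the pattern of the ribosomal proteins, and their medians were at or below that of all genes. Of 39 listed 40S assembly factors, 0 passed the wider call as higher and 15 as lower in TR1 and 23 in TR9, with median log2 ratios of -0.45 and -0.67. Of 30 listed 60S assembly factors, 2 were higher and 9 lower in TR1, and 1 higher and 20 lower in TR9, with medians of -0.30 and -0.63. Of 12 genes of the box C/D and H/ACA particles that modify ribosomal RNA, 0 were higher, 4 were lower in TR1 and 9 in TR9, with medians of -0.33 and -0.79. Of 20 listed genes of RNA polymerase I and its factors, 1 was higher and 7 lower in TR1, and 0 higher and 9 lower in TR9, with medians of -0.30 and -0.53. These medians kept their sign under each scaling tried. The share of each list called lower ran from 30% to 38.5% in TR1 and from 45.0% to 75% in TR9. Of all genes, 23.0% in TR1 and 18.9% in TR9 were called lower, and of the other genes with at least 1000 counts in either library 39.6% and 36.7%. In TR1 the lists thus lay between these shares, and in TR9 above both.

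Nop58, a core protein of box C/D particles, had 2161, 856 and 984 counts, with log2 ratios of -1.36 (-1.47 to -1.24) and -1.04 (-1.15 to -0.93). Rrn3, the factor that brings RNA polymerase I to ribosomal DNA, had 598, 278 and 274 counts, with -1.13 and -1.03. Tma16, a 60S assembly factor, had 157, 366 and 397 counts, with 1.20 and 1.43. Nop58 and Rrn3 were thus highest in control, and Tma16 in TR9. Of 14 genes on a mixed list of chaperones and sensors, not all of which act on ribosomal proteins, 0 were higher in TR1 or TR9. Of all genes 23.0% and 18.9% were lower, and of other genes with at least 1000 counts 39.6% and 36.7%. Of the 14, 6 were lower in TR1 (42.9%) and 8 in TR9 (57.1%). Among them were Heatr3, which brings Rpl5 into the nucleus (log2 ratio -1.14 in TR1 and -1.34 in TR9), Grwd1, a chaperone of Rpl3 (-1.04 and -1.41), and Eif2ak4, the kinase GCN2 that senses uncharged tRNA (-1.09 and -1.28).

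The ubiquitin and ubiquitin-like fusions, the other TOP mRNAs and the mTORC1 list did not share 1 direction. Rps27a, made as a fusion to ubiquitin, and Fau, which carries the ribosomal protein eS30 behind a ubiquitin-like part and falls outside the symbol rule, passed the wider call in TR1 with log2 ratios of 0.65 and 0.72, and in TR9 stood at 0.15 and 0.36, which did not pass. Of 20 listed translation factors and other genes with TOP mRNAs, 4 passed the wider call as higher and 5 as lower in TR1, and 5 and 6 in TR9. The shares called lower, 25% in TR1 and 30% in TR9, stood beside 23.0% and 18.9% of all genes, and those called higher, 20% and 25%, beside 11.7% and 13.5%. Of other genes with at least 1000 counts, 39.6% and 36.7% were lower, and 23.4% and 24.8% higher. The medians of the 20 genes were 0.18 and -0.01, and the sign of each turned under at least 1 other scaling. Of 17 genes from mTORC1 and Myc to ribosomal protein mRNA, activators and inhibitors alike, 0 were higher. In TR1 6 were lower (35.3%) and in TR9 7 (41.2%), with medians of -0.40 and -0.36. Of all genes 23.0% and 18.9% were lower, and of other genes with at least 1000 counts 39.6% and 36.7%. As the list is mixed, these values give no direction for the axis. Myc, which drives ribosome synthesis, had 1975, 2665 and 2212 counts, with log2 ratios of 0.41 (0.33 to 0.50) and 0.26 (0.17 to 0.35), under the wider call, and Mycn, with 43 control counts, was at 0 in TR1 and TR9.

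**Figure D5:**
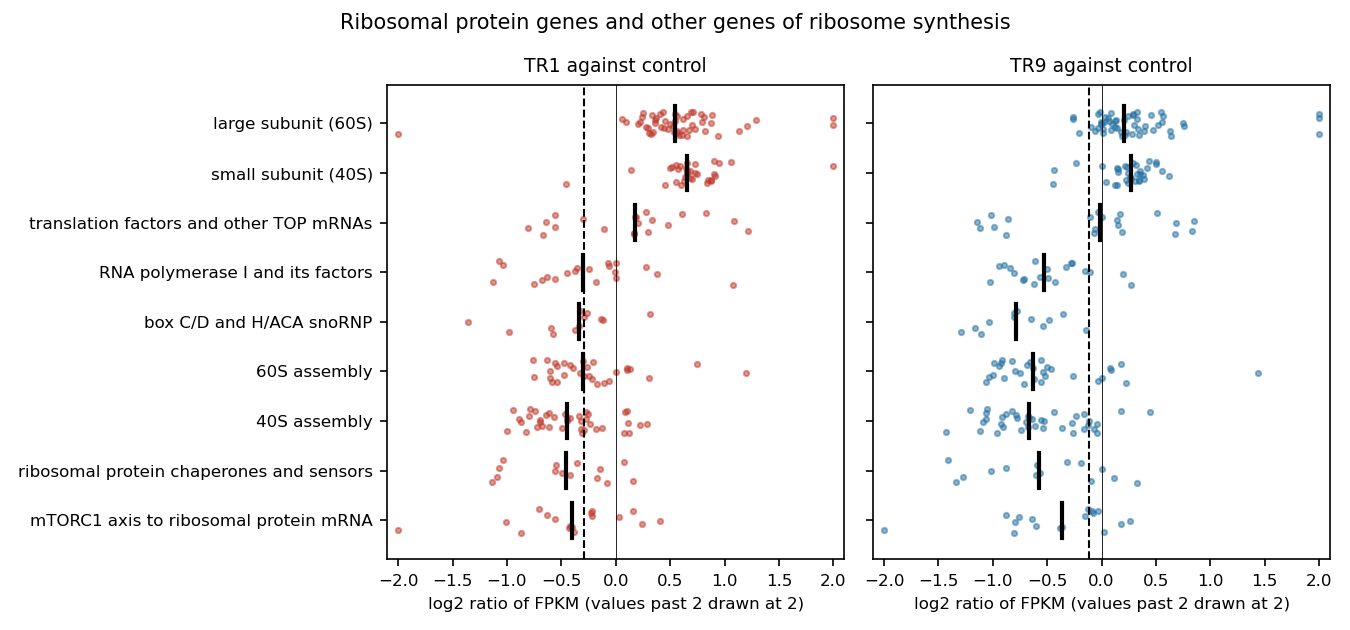
Log2 ratio of FPKM of single genes (points) and the median of each list (bars) in TR1 and TR9 against control, with values past 2 in size drawn at 2 and the median of all genes tested as a dashed line. Both ribosomal protein lists lie to the right of the dashed line, and the 4 lists of RNA polymerase I, small nucleolar particles and assembly lie at or to the left of it in both panels.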

How the data were processed

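RNA-seq was performed by the authors on 3 mouse libraries, 1 per condition. HiSeq 2000 reads were filtered, mapped (BWA, Bowtie) and quantified per gene by RSEM, and the submitters' notes name mm9, while versions and annotation are not given in the sources used here. For each gene the authors deposited the expected count, an RSEM estimate that need not be whole and is not normalized, and the FPKM, scaled by RSEM for length and library total. RSEM divides reads that match several genes, and of the 87 members 22 had counts that were not whole to within 0.01.

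Gene IDs were matched to RefSeq symbols (16698 of 16742), and genes absent from a library's list were set to 0. Log2 ratios are of FPKM, with values under 0.01 set to 0.01. Rounded expected counts entered a two-sided conditional exact Poisson test given the library totals (scipy 1.17.1), with Benjamini-Hochberg adjustment over all genes listed in either library. Intervals are 95% Clopper-Pearson intervals of the count ratio. Those for a paralog's change against its parent take the parent's counts as fixed and are too narrow. The steps were tested on simulated Poisson counts, which follow the test's own model and hold no variation between mice. This checks the computation and not the calls from 1 library per condition. The members and lists were chosen with earlier results of these data known, and lists got no test. Members are named by highest mean FPKM (5), by DEG call, by the 5 highest and 5 lowest log2 ratios of each comparison among those with at least 10 counts, and as paralogs with at least 10 counts. From other lists the 3 genes with the largest mean change called DEG in the same direction in both TR libraries are named. Named after their values were seen were Rpl5, Rpl7a, Rpl10l, Rpl11, Rpl23, Rpl32l, Rpl34, Rplp1, Rplp2, Rps14, Rps15a, Rps28, Rps4l, Myc and Fau. Some genes are not reported here by name, and 1 member is left out of the plot of levels. Promoters are those of RefSeq on GRCm38.p6, and the windows of Rpl39, Rpl39l, Rps27 and Rps27l were added after seeing the ratios. Protein sequences were not used here.

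Alternatives were another FPKM floor (0.001), a pseudocount of 1 FPKM, minima of 1 FPKM or 10 counts, TMM, median of ratios, upper quartile, totals without the members or without the 100 most abundant genes, TPM, count ratios, the Audic-Claverie test, a false discovery rate of 0.05, the edgeR 4.0.16 exact test (R 4.3.3) at a biological variation (BCV) set to 0.2, members without paralogs, and members with whole counts. Counts summed with pseudogene copies, and Rpl32l left out with the paralogs, were chosen after seeing the data.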

Additional observations from a re-analysis of the deposited data

Results flagged for a closer look

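Rps9, Rps2, Rpl14 and Rpl7a stood above control in TR1 and below it in TR9, past the false discovery rate of 0.001 in each comparison, and the direct comparison of TR9 with TR1 gave log2 ratios of -0.89 for Rps9, -0.57 for Rps2, -0.50 for Rpl14 and -0.38 for Rpl7a. The difference was tested on the reads of 1 library per line. For Rps2 and Rpl7a the counts were not whole, so these reads were divided with similar genes. With TPM scaling Rps2 was also below control in TR1, and with TMM scaling Rpl7a was at 0.007 in TR9 and so not below control.

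Pseudogene copies outside the members were DEGs higher in TR1 than in control. Rpl34-ps1 had a log2 ratio of 1.16 (30.3 counts in control and 68.8 in TR1), Rpl31-ps12 of 1.12 (301 and 664) and Rplp2-ps1 of 2.39 (4.49 and 23.9). Their counts were not whole, so they share reads with Rpl34, Rpl31 and Rplp2, and the pairs added up had log2 ratios of 0.69, 0.63 and 0.53.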

How the results depend on the processing

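The median log2 ratio of the members kept its sign under each alternative tried, from 0.39 to 0.86 in TR1 and 0.13 to 0.35 in TR9 against control and from -0.51 to -0.25 for TR9 against TR1. Scaling shifted all genes alike, TMM by 0.25, 0.11 and -0.13 in these comparisons, and the members' distance from the gene median is the same under each. In that order, TMM gave medians of 0.86, 0.35 and -0.50, median of ratios 0.85, 0.34 and -0.51, upper quartile 0.76, 0.30 and -0.46, totals without the members 0.66, 0.26 and -0.40, totals without the 100 most abundant genes 0.75, 0.31 and -0.43, TPM 0.39, 0.13 and -0.25, and members with whole counts 0.61, 0.23 and -0.39. A pseudocount of 1 FPKM gave -0.36 for TR9 against TR1, and counts summed with pseudogene copies 0.62 in TR1.

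Of TR1 DEGs, 20 were called with TMM and with median of ratios, 14 with upper quartile and without the 100 most abundant genes, 2 with TPM and 2 among members with whole counts. The wider call took 24 members in TR1 and 6 in TR9 with TPM, and 7 in TR9 among members with whole counts. The TR9 DEGs were 1 with TPM and 0 without paralogs, where TR9 against TR1 had 1. Members lower in TR9 than in TR1 by the wider call were 40 with TMM, 45 with median of ratios, 32 with upper quartile, 29 without the 100 most abundant genes and 6 with TPM. With edgeR at an assumed coefficient of variation of 0.2, each of these counts was 1. The Audic-Claverie test left each count as it was. The members' share by FPKM was 17.8%, 23.0% and 19.4% in control, TR1 and TR9. Without the 100 most abundant genes, which differ by library, the share by counts was 2.78%, 3.15% and 3.41%.

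Over the 77 members without paralogs, signs turned for ratios of at most 0.21 in size as deposited. In TR9 against control 7 turned to above 0 with TMM (Rpl7a to 0.007), 6 each with totals lacking the 100 most abundant genes, with upper quartile and with median of ratios, and 3 with totals without the members, while 10 turned to below 0 with TPM. In TR1 against control 3 turned to below 0 with TPM, and for TR9 against TR1 4 turned to above 0. The values that follow are those of the members named by rule and of the lists. In TR1 against control with TPM, Rpl21 was at -0.019, Rpl29 at -0.13, Rpl7l1 at -0.17, Rps2 at -0.087 and the translation factor list at -0.047. In TR9 against control, TMM, median of ratios, upper quartile, totals without the members and totals without the 100 most abundant genes gave Rpl21 0.10, 0.092, 0.056, 0.011 and 0.061, Rpl29 0.10, 0.090, 0.053, 0.00875 and 0.059, and the translation factor list 0.094, 0.082, 0.046, 0.000854 and 0.051, and TPM gave Rpl41 -0.010 and Rpl8 -0.074. For TR9 against TR1, these 5 settings gave Rps27l -0.12, -0.13, -0.074, -0.019 and -0.052, and all but the totals without the members gave the mTORC1 list -0.088, -0.10, -0.044 and -0.023, while TPM gave Rpl19 0.073, Rpl22 0.077, Rpl29 0.018 and Rpl32 0.033. Each setting adds 1 shift to all genes.

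No paired analysis was possible because there was 1 library per condition and no replicate number. For the same reason leaving out a library was not run, and the spread between mice is not known. The counting intervals are wide for Rpl39l, Rpl3l, Rps23rg1 and Rps27l.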
